A study of Mus musculus with 4 samples.

Results

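Transcripts of red blood cells were followed in bulk RNA-Seq libraries of nasal process (NP) tissue from E11.5 mouse embryos, through 9 genes chosen by symbol: the embryonic globins *Hbb-y*, *Hbb-bh1* and *Hba-x*, the adult globins *Hba-a1*, *Hba-a2*, *Hbb-bt* and *Hbb-bs*, the heme synthesis enzyme *Alas2* and the anion exchanger *Slc4a1*. Of these 9 genes, 5 have a row among the 13577 genes of the table used here, namely the 3 embryonic globins, *Alas2* and *Slc4a1*. The 4 adult globins were not analysed here. By their titles, 2 libraries come from control embryos (control NP) and 2 from embryos with the ca-*Acvr1(A11)* mutation (mutant NP). By the methods of the study, control embryos carried *P0-Cre* without the transgene, and mutant embryos carried both *P0-Cre* and 1 copy of a transgene for constitutively active ACVR1, a BMP type I receptor, on a mixed background. All 4 libraries therefore share *P0-Cre*, which recombines in neural crest cells, and the transgene is driven by the CAG promoter once recombined. The genotype entries of the same libraries state the reverse of the titles, so every direction below follows the titles and would turn round if the genotype entries were right. How many embryos went into a library is not given in the sources used here, and p-values measure only the spread between these libraries.

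Red blood cells of the midgestation embryo belong mostly to the primitive lineage, which arises in the yolk sac from mesoderm, circulates while still nucleated and fills itself with hemoglobin. Primitive cells begin with embryonic globins (*Hbb-y*, or εy, and *Hbb-bh1*, or βh1, on the β side and *Hba-x*, or ζ, on the α side) and move toward adult-type chains as they mature, with *Hbb-bh1* declining before *Hbb-y*. Definitive red cells from the fetal liver make adult globins. Any dissected piece of a vascularized embryo holds such cells in its vessels, and no sort that would remove them is described for NP tissue.

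Library totals ranged from 1956831 to 2408827 reads, so that 1 read was worth 0.415 to 0.511 CPM (the count of a gene divided by the reads of the whole library and put on a common scale). The kit primes at the poly(A) tail and gives about 1 read per transcript whatever its length, so CPM of different genes can be set side by side as transcript levels, within the limits of how uniquely each 3′ end maps. The highest gene in each library was *Rn45s*, a ribosomal RNA precursor, with 5.60% and 7.47% of the control totals and 6.60% and 4.52% of the ca-*Acvr1(A11)* totals. *Acvr1* itself, read at the 3′ end of the mouse gene, which was not told apart from the message of the transgene, was at 21.5 and 23.1 CPM in control NP against 24.1 and 12.6 CPM in mutant NP (log2 fold change −0.33, adjusted p = 0.786 in limma), a value that does not settle which group is which. Markers of the labelled tissue were present, among them the craniofacial mesenchyme factors *Alx1* and *Prrx1*.

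In the GENCODE annotation of GRCm38, *Hbb-y* lies at chr7:103851749-103853216 and *Hbb-bh1* at chr7:103841637-103843164, both on the minus strand of the β-globin cluster, followed by *Hbb-bs* at chr7:103826534-103828096 and *Hbb-bt* at chr7:103812524-103813996. *Hba-x* lies at chr11:32276400-32278116 on the plus strand, ahead of *Hba-a1* at chr11:32283511-32284465 and *Hba-a2* at chr11:32296489-32297298. All of these globin genes have 3 exons. *Alas2* (chrX:150547375-150570638, plus strand) has 11 exons and *Slc4a1* (chr11:102348824-102366203, minus strand) has 20. Since the kit reads the 3′ end, the last 300 bases of each globin transcript were cut into 251 overlapping windows of 50 bases and looked up in the other globins. For *Hbb-y*, *Hbb-bh1* and *Hba-x*, 0 of 251 windows recurred in another globin. For *Hba-a1* and *Hba-a2*, 80.08% and 73.71% of windows recurred in the other gene of the pair, and for *Hbb-bt* and *Hbb-bs* 36.25% and 36.65% did. Within these windows, reads of the embryonic globins can thus be told from those of every other globin listed.

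The promoters of 3 of the genes measured are shown with the motifs of erythroid and general factors that were looked up in them. Binding of factors was not measured, and sequences farther from the genes were not searched. Each line gives the 150 bases before the RefSeq start (GRCm38.p6), 5′ to 3′ in the direction of transcription: *Hbb-y* at chr7:103853208-103853357 (minus strand), *Hba-x* at chr11:32276450-32276599 (plus strand) and *Alas2* at chrX:150547267-150547416 (plus strand). GENCODE starts differ from RefSeq starts, and the *Hba-x* window lies within the GENCODE gene. Capitals mark matches, on either strand, to the motif AGATAA of the GATA factors, the motif CCNCNCCC of the KLF factors, the CCAAT box and the letters ATAAA found in many TATA boxes.
Hbb-y: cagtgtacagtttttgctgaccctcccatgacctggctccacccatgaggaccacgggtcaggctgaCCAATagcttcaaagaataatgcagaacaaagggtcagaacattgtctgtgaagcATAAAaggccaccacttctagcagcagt
Hba-x: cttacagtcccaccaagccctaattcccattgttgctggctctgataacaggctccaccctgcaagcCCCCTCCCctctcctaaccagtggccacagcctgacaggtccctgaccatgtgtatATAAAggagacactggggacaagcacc
Alas2: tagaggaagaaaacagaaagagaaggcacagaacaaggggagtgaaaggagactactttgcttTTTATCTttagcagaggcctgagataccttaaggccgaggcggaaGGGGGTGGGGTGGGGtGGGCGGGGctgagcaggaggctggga
Of the 9 genes, 7 had a promoter entry, and *Hbb-bh1* and *Slc4a1* had none. Counting back from the start, *Hbb-y* has CCAAT at −83 to −79 and ATAAA at −28 to −24, and *Hba-x* has CCNCNCCC at −83 to −76 and ATAAA at −27 to −23. *Alas2* has AGATAA on the opposite strand at −86 to −81, overlapping an opposite-strand ATAAA at −87 to −83, and 4 partly overlapping opposite-strand matches to CCNCNCCC between −42 and −19. Among 27025 promoters cut the same way, a match to AGATAA was found in 5.758%, to CCNCNCCC in 37.85%, to CCAAT in 25.27% and to ATAAA in 24.84%. AGATAA was the rarest of them, but it is also a longer word than CCAAT and ATAAA. A match describes the sequence only. Other forms of the GATA and KLF motifs were not searched, so the lack of a mark does not mean the lack of a site.

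Embryonic globins were among the most abundant transcripts of NP tissue at E11.5. *Hbb-y*, the ε-type β chain, was at 4044.8 and 4680.4 CPM in control NP (7915 and 10543 reads) against 3702.2 and 4047.7 CPM in mutant NP (8918 and 8650 reads), which made it the gene of rank 3 to 5 of 13577 in every library. *Hbb-bh1*, the other embryonic β-type chain, was at 1554 and 2267.6 CPM in control NP (3041 and 5108 reads) against 1629.4 and 1746.4 CPM in mutant NP (3925 and 3732 reads). Control replicate 2 held the highest level of both genes, and for each the groups overlapped. *Hba-x*, the ζ-type α chain, was the steadiest of the members, at 1373.6 and 1465 CPM in control NP (2688 and 3300 reads) against 1329.3 and 1343.5 CPM in mutant NP (3202 and 2871 reads). For *Hba-x* alone among the 5 genes the groups did not overlap, the ca-*Acvr1(A11)* libraries being lower, and 16.8% of all genes tested were separated in that direction.

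**Figure D1:**
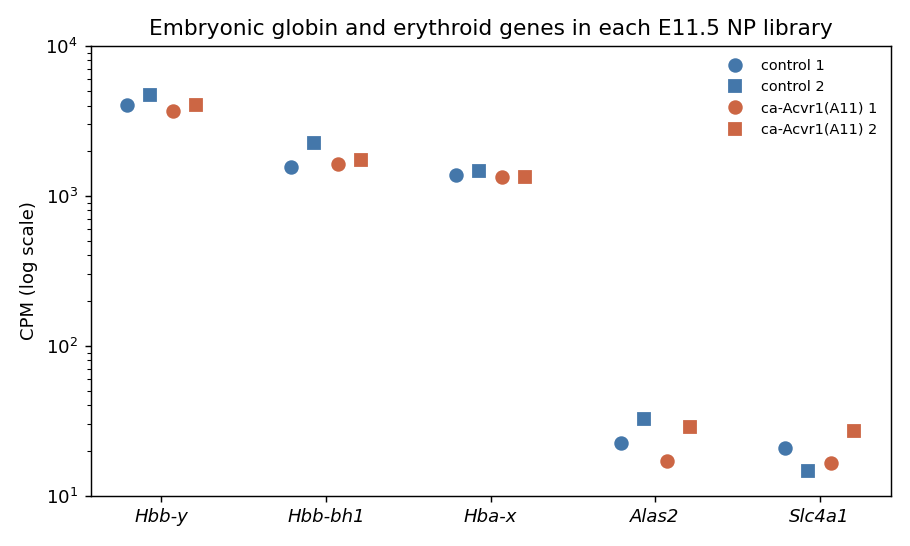
CPM on a log scale of the 5 genes with a row, with 1 point for each control (blue) and ca-*Acvr1(A11)* (orange) library; circles are replicate 1 and squares replicate 2. The 3 embryonic globins sit between 1329.3 and 4680.4 CPM, and *Alas2* and *Slc4a1* between 14.6 and 32.4 CPM.

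The remaining members were far lower. *Alas2*, the erythroid form of the first enzyme of heme synthesis, was at 22.5 and 32.4 CPM in control NP (44 and 73 reads) against 17.0 and 28.5 CPM in mutant NP (41 and 61 reads). *Slc4a1*, which encodes the band 3 anion exchanger of the red cell membrane, was at 20.95 and 14.6 CPM in control NP (41 and 33 reads) against 16.6 and 27.1 CPM in mutant NP (40 and 58 reads). The order of the levels was *Hbb-y*, *Hbb-bh1*, *Hba-x*, *Alas2*, *Slc4a1* in all 4 libraries. *Hbb-y* exceeded *Hbb-bh1* by 2.06 to 2.60 times and *Hba-x* exceeded *Alas2* by 45.2 to 78.1 times, gaps wider than the spread between libraries. *Hbb-bh1* exceeded *Hba-x* by only 1.13 to 1.55 times. *Alas2* and *Slc4a1* were within 1.07 times of each other in 3 libraries and 2.21 times apart in control replicate 2, so these neighbors lay within counting error of each other in the former 3.

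Together the 3 embryonic globins took 0.697% (95% exact binomial interval 0.686 to 0.709) and 0.841% (0.829 to 0.853) of control reads and 0.666% (0.656 to 0.676) and 0.714% (0.703 to 0.725) of ca-*Acvr1(A11)* reads. These intervals cover counting error only, since reads without molecular identifiers are not independent molecules. The mean share was 0.769% ± 0.102 (SD, n = 2) in control and 0.690% ± 0.0337 (SD, n = 2) in mutant NP, a ratio of 0.897. The control replicates differed from each other by 1.21 times and the ca-*Acvr1(A11)* replicates by 1.07 times, and the ratio of a mutant to a control library ran from 0.792 to 1.02 over the 4 possible pairs. The group difference was therefore no larger than the spread between the control libraries (two-sided exact permutation test, p = 0.667, where the smallest p that 2 libraries against 2 allow is 0.333). In bulk tissue, such a share cannot tell apart the number of red cells, the globin RNA of each and the RNA of other cells. *Rn45s* was also highest in control replicate 2. With its reads taken out of the totals, the share was 0.739% and 0.909% in control and 0.713% and 0.748% in ca-*Acvr1(A11)* libraries, with a ratio of 0.886.

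**Figure D2:**
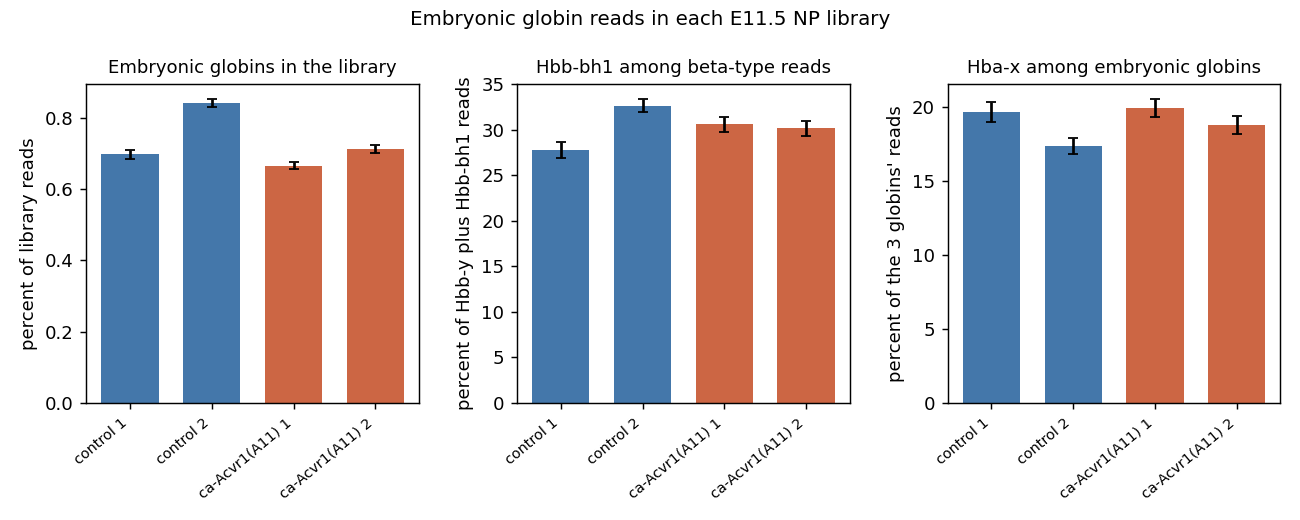
Bars give, for each library, the embryonic globin reads as a percent of the library (left), *Hbb-bh1* as a percent of *Hbb-y* plus *Hbb-bh1* reads (middle) and *Hba-x* as a percent of the reads of the 3 embryonic globins (right), with 95% exact binomial intervals. Control replicate 2 has the highest value on the left (0.841%) and in the middle (32.6%) and the lowest on the right (17.4%).

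The mixture of embryonic chains did not separate the groups. *Hbb-bh1* made up 27.8% (26.9 to 28.6) and 32.6% (31.9 to 33.4) of the embryonic β-type reads in control and 30.6% (29.8 to 31.4) and 30.1% (29.3 to 31.0) in ca-*Acvr1(A11)* libraries. The means were 30.2% ± 3.45 and 30.4% ± 0.297 (SD, n = 2 each), with both ca-*Acvr1(A11)* libraries lying between the control libraries. *Hba-x* made up 19.7% and 17.4% of the embryonic globin reads in control against 19.96% and 18.8% in mutant NP, which also overlap. Embryonic β-type reads outnumbered *Hba-x* reads by 4.08 and 4.74 times in control and by 4.01 and 4.31 times in ca-*Acvr1(A11)* libraries. This is a ratio of embryonic transcripts and not of all α-type and β-type chains, since the adult chains were not analysed here, and for the same reason no share of embryonic among all globin transcripts can be given.

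Replicates of 1 group differed by several times the counting error for the β-type genes, more so between the control libraries. *Hbb-bh1* was higher in control replicate 2 than in replicate 1 by 0.55 on the log2 scale, 16.5 times its counting error, against 0.10 and 3.03 times between the ca-*Acvr1(A11)* libraries. The corresponding differences of *Hbb-y* were 9.81 and 5.91 times the counting error. *Hba-x* differed by 2.48 times its counting error between control libraries and 0.413 times between ca-*Acvr1(A11)* libraries. For *Alas2* and *Slc4a1*, with 33 to 73 reads a library, the order was the other way: replicates differed by 1.92 and 1.53 times the counting error in control and by 2.56 and 2.39 times in mutant NP.

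In the test across all 12462 genes with a mean above 1 CPM (limma on log2(CPM + 1)), 0 of the 5 genes were called at an adjusted p under 0.05, against 0.899% of all genes tested, and 0 had an unadjusted p under 0.05, against 9.55%. Counts were also 0 at both thresholds with edgeR and with DESeq2 on the recovered reads. *Hbb-y* averaged 4362.6 ± 449 CPM in control NP and 3874.9 ± 244 CPM in mutant NP (SD, n = 2 each), which on the log2 scale is a change of −0.17 (SE 0.16, adjusted p = 0.828 in limma). The 95% interval of that change ran from −0.50 to 0.16, which leaves room for a level between 0.707 and 1.12 times that of control. *Hbb-bh1* averaged 1910.8 ± 505 and 1687.9 ± 82.7 CPM, a log2 fold change of −0.15 (interval −0.48 to 0.18, adjusted p = 0.846 in limma). Without control replicate 1, *Hbb-bh1* passed the threshold as lower (log2 fold change −0.43, adjusted p = 0.0355 in limma), and without control replicate 2 its change was 0.12, so that its value rests on which control library is kept. *Hba-x* averaged 1419.3 ± 64.6 and 1336.4 ± 10.03 CPM, with the narrowest interval of the 5 (log2 fold change −0.086, interval −0.37 to 0.20, adjusted p = 0.914 in limma).

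The lower members had wider intervals. *Alas2* averaged 27.4 ± 7.02 and 22.8 ± 8.15 CPM in control and ca-*Acvr1(A11)* libraries (log2 fold change −0.28, interval −0.81 to 0.25, adjusted p = 0.817 in limma). *Slc4a1* averaged 17.8 ± 4.46 and 21.9 ± 7.45 CPM (log2 fold change 0.26, interval −0.30 to 0.83, adjusted p = 0.846 in limma). Over the 5 genes the median change was −0.15 on the log2 scale, with 4 negative and 1 positive, beside 0.029 for all genes tested. Per 1000 embryonic globin reads there were 3.22 and 3.85 *Alas2* reads in control and 2.56 and 3.999 in mutant NP, and the groups overlapped. *Slc4a1* likewise overlapped, with 1.74 to 3.80 reads per 1000 over the 4 libraries.

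Other genes of the red cell program were read from 5 lists of 80 genes beside the members, of which 71 have a row and 68 were tested. Of these 68, 1 was called, as lower (*Slc2a1*), beside 0.899% of all genes tested. Changes were positive for 38 and negative for 30, beside 6752 and 5710 of all 12462 genes tested. The median log2 fold change was 0.063, and 56 lay within 0.5 of no change in either direction. An unadjusted p under 0.05 was found for 5, or 7.35%, beside 9.55% of all genes. *Slc2a1*, which encodes the glucose transporter GLUT1 of red cells and many other cells, was deposited at 538 and 477 CPM in control NP against 98.5 and 89.7 CPM in mutant NP (log2 fold change −2.42, adjusted p = 8.19e-12 in limma), but these values are not whole numbers of reads. The whole-read values of the same decimals are 466 and 398 reads in control NP against 719 and 619 reads in mutant NP. With them the log2 fold change of *Slc2a1* was 0.52 (adjusted p = 0.133 in limma), and edgeR and DESeq2 on those reads gave adjusted p = 0.142 and 0.884. The direction for *Slc2a1* thus depends on which values are used. Since the deposited ones are not whole reads, its call as lower is not read here as a fall in expression. All values of the 5 members are whole reads.

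**Figure D3:**
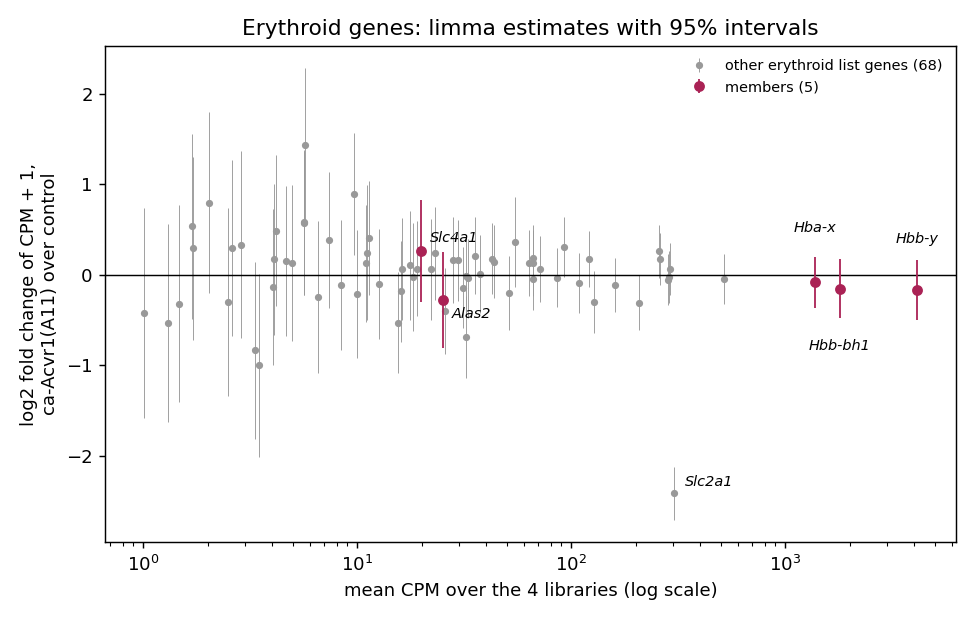
Log2 fold change (ca-*Acvr1(A11)* over control, limma, with 95% intervals) against mean CPM on a log scale for the 5 members (red) and the 68 other erythroid list genes tested (gray). The intervals of all 5 members cross 0, and *Slc2a1*, whose deposited values are not whole reads, lies apart at −2.42.

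No heme synthesis gene was called. All 14 were tested, *Alas2* included, 8 were positive and 6 negative, and the summed level was 635 and 670 CPM in control NP against 634 and 693 CPM in mutant NP. *Tmem14c*, a mitochondrial porphyrin transporter gene, averaged 167 ± 0.808 and 154 ± 0.339 CPM (log2 fold change −0.11, adjusted p = 0.874 in limma). *Cpox*, coproporphyrinogen oxidase, averaged 83.0 ± 11.3 and 103 ± 3.46 CPM (log2 fold change 0.31, adjusted p = 0.572 in limma). Of the red cell membrane genes, 17 of 20 have a row and 15 were tested, with 11 positive, 4 negative and a median of 0.15. Apart from *Slc2a1* none of them was called, and *Add2*, the β-adducin gene of the membrane skeleton, was 0.21 higher on the log2 scale (adjusted p = 0.837 in limma).

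All 15 erythroid transcription factors were tested and 0 were called, with 7 positive, 8 negative and a median of −0.041. *Gata2*, a factor of blood progenitors that is also used in other tissues, was at 36.3 and 43.9 CPM in control NP against 21.2 and 28.1 CPM in mutant NP, without overlap (log2 fold change −0.69, SE 0.22, adjusted p = 0.202 in limma). Of all genes tested, 16.8% were separated in that direction. *Bcl11a*, a repressor of embryonic globin genes that is also expressed in neural tissue, was at 124 and 158 CPM in control NP against 98.8 and 130 CPM in mutant NP (log2 fold change −0.30, adjusted p = 0.597 in limma). *Sox6*, its partner in globin silencing, was at 72.6 and 52.8 CPM in control NP against 70.2 and 70.7 CPM in mutant NP (log2 fold change 0.18, adjusted p = 0.837 in limma). Among factors chosen after their values were seen, *Klf1*, the activator of adult β-globin, was at 18.9 and 18.2 CPM in control NP against 12.5 and 12.6 CPM in mutant NP. The groups of *Klf1* did not overlap either, again beside 16.8% of all genes. It rests on 27 to 41 reads and did not pass the test (log2 fold change −0.53, SE 0.27, adjusted p = 0.558 in limma). *Gata1*, the master factor of the lineage, had 9 and 3 reads in control and 3 and 6 in ca-*Acvr1(A11)* libraries, too few to compare.

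Among the genes of iron handling and erythropoietin signaling, 13 of 14 were tested and 0 called, with 9 positive, 4 negative and a median of 0.17. *Slc40a1*, the iron exporter ferroportin, was at 1.53 and 3.995 CPM in control NP (3 and 9 reads) against 7.89 and 9.36 CPM in mutant NP (19 and 20 reads). Its log2 fold change was 1.43 (adjusted p = 0.130 in limma), on very few control reads. *Hmox1*, the heme-degrading enzyme, was at 7.15 and 5.77 CPM in control NP (14 and 13 reads) against 12.0 and 13.6 CPM in mutant NP (29 and 29 reads). Its log2 fold change was 0.89 (adjusted p = 0.313 in limma). Both genes are also used by macrophages that recycle red cells, and macrophage markers were also at higher values in mutant NP: 10 of 12 have a row, all 10 were positive, *Cx3cr1* and *Mrc1* were called as higher (log2 fold changes 1.04 and 1.34, adjusted p = 0.0143 and 0.0411 in limma; 0.337 and 1.00 in DESeq2), and their summed level was 52.6 and 54.6 CPM in control NP against 88.8 and 130 CPM in mutant NP, with *C1qa* at 0 reads in control replicate 1. Over all 12462 genes tested, 6752 changes were positive and 38 genes were called as higher. The part of macrophages in the values of *Slc40a1* and *Hmox1* was not tested. The ferritin light chain gene *Ftl1* was at 220 and 239 CPM in control NP against 206 and 166 CPM in mutant NP (log2 fold change −0.31, adjusted p = 0.503 in limma), while the heavy chain gene *Fth1* had a change of −0.055. The oxygen-sensing factor *Hif1a*, expressed in many cells, was 0.062 higher on the log2 scale (adjusted p = 0.943 in limma).

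Among genes of red cell maturation and enzymes, 15 of 20 have a row, 14 were tested and 0 called, with 5 positive, 9 negative and a median of −0.040. *Prdx2*, an abundant antioxidant protein of red cells, averaged 525 ± 45.3 and 507 ± 2.13 CPM (log2 fold change −0.046, adjusted p = 0.957 in limma). The glutathione peroxidase gene *Gpx1* averaged 289 ± 31.4 and 284 ± 4.94 CPM (log2 fold change −0.024, adjusted p = 0.979 in limma). *Hbq1b*, a θ-type α-globin gene, had 2 and 9 reads in control and 11 and 4 in ca-*Acvr1(A11)* libraries.

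Other cells that come with vessels were read in the same way. Of the endothelial markers, 15 of 15 were tested and 0 called, and their summed level was 262 and 281 CPM in control NP against 271 and 256 CPM in mutant NP. *Cdh5*, VE-cadherin, and *Kdr*, the receptor for VEGF, were at −0.14 and −0.085 on the log2 scale (adjusted p = 0.913 and 0.943 in limma). Of the platelet and megakaryocyte markers, 10 of 12 have a row, 9 were tested and 1 was called, *Thbs1* as lower (28.6 and 47.9 CPM in control NP, 21.2 and 12.6 CPM in mutant NP, log2 fold change −1.13, adjusted p = 0.0330 in limma and 0.422 in DESeq2). *Thbs1* encodes thrombospondin, which many mesenchymal cells make too, while *Pf4*, platelet factor 4, was at 38.3 and 53.7 CPM in control NP against 41.9 and 52.4 CPM in mutant NP. *Gp1ba*, a platelet receptor gene, was at 0 reads in control replicate 2 and ca-*Acvr1(A11)* replicate 1.

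Markers of the tissue itself did move with the groups, so the relation of globins to them depended on the marker. Nasal mesenchyme markers were tested for 14 of 14 genes, all 14 were negative and 9 were called as lower, with a summed level of 2058.9 and 2416.3 CPM in control NP against 1174.4 and 1164.7 CPM in mutant NP, and *Meox1* was at 0 reads in ca-*Acvr1(A11)* replicate 2. Nasal epithelium markers were tested for 14 of 14 genes, 11 were positive and 3 negative, *Epcam* and *Cdh1* were called as higher (adjusted p = 0.0264 and 0.0145 in limma, 0.416 and 0.226 in DESeq2), and the sum was 828 and 817 CPM in control NP against 1168.6 and 1122.6 CPM in mutant NP. *Sox2* was the largest part of the epithelium sum, at 455 and 429 CPM in control NP against 616 and 633 CPM in mutant NP. Its log2 fold change was 0.50 (adjusted p = 0.0803 in limma), so ratios to that sum rest in large part on 1 gene. Over all 12462 genes tested, 5710 changes were negative, 74 genes were called as lower and 38 as higher. The embryonic globin sum was 3.39 and 3.48 times the mesenchyme sum in control and 5.67 and 6.13 times in ca-*Acvr1(A11)* libraries, a ratio of 1.72 between the groups. Against the epithelium sum it was 8.42 and 10.3 times in control and 5.70 and 6.36 times in ca-*Acvr1(A11)* libraries, a ratio of 0.644. Against the endothelial sum the groups overlapped, at 26.6 and 29.9 times in control and 24.6 and 27.8 times in ca-*Acvr1(A11)* libraries, a ratio of 0.927. The part of these other cells in the globin share of a library was not tested.

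**Figure D4:**
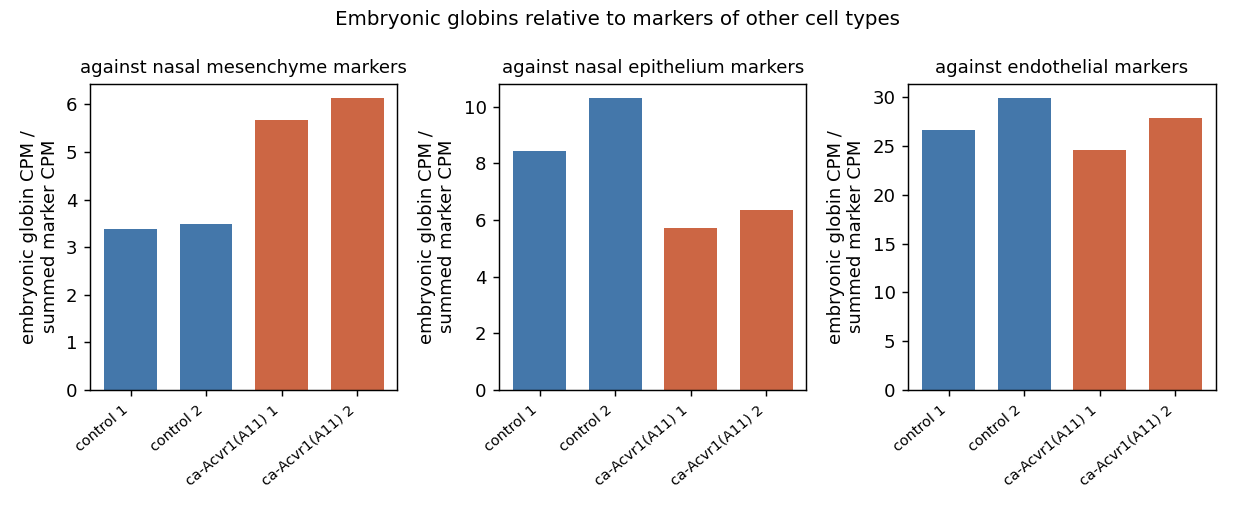
Bars give the summed CPM of the 3 embryonic globins divided by the summed CPM of nasal mesenchyme, nasal epithelium and endothelial markers in each control (blue) and ca-*Acvr1(A11)* (orange) library. The ca-*Acvr1(A11)* libraries are above control against mesenchyme markers (5.67 and 6.13 over 3.39 and 3.48), below it against epithelium markers and overlapping with it against endothelial markers. *Sox2* is the largest part of the epithelium sum.

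The genes whose pattern over the 4 libraries was nearest to the mean pattern of the 5 members were sought among 9768 genes with a mean of at least 5 CPM, by the distance between centered log2(CPM + 1) values. The 5 nearest were *Mrpl41* (distance 0.0136), *Cdk4* (0.0197), *Cenpw* (0.0286), *Tmem184b* (0.0299) and *Ostc* (0.0375), beside a median distance of 0.439. The members themselves lay farther off, from 0.165 for *Hbb-y* to 0.634 for *Slc4a1*, and 0 of the 25 nearest genes were in the erythroid lists. At most 68 genes of those lists could be among the 9768 ranked, so a count of 0 says little. The mean pattern gives the 5 members equal weight, so the low genes *Alas2* and *Slc4a1* shape it most. Between ca-*Acvr1(A11)* replicates they differed by 0.75 and 0.71 on the log2 scale. *Hbb-y*, *Hbb-bh1* and *Hba-x* differed there by 0.13, 0.10 and 0.015. With 4 libraries many genes fall near any pattern, and the names of the nearest genes are a description only.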

How the data were processed

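NP tissue of E11.5 mouse embryos was profiled as 2 control and 2 ca-*Acvr1(A11)* libraries, grouped by title. RNA was extracted with Trizol, and libraries were made with a QuantSeq 3′ kit. The authors deposited CPM values, reads per gene scaled to the total of the library. The submitters' processing notes name STAR, featureCounts 1.6.4, DESeq2 and the mm10 build. The table lists 13577 genes and 33470 empty lines.

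Whole reads were recovered from the smallest step between values. Of 54308 values, 99.9208% were whole within 0.02 reads. The other 43, in 22 genes, were replaced, in an alternative and in the read counts, by a whole-read value of the same decimals where 1 lay within 500 CPM.

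Values were tested with limma 3.58.1 (R 4.3.3) as log2(CPM + 1) with a mean-variance trend, a mean above 1 CPM and Benjamini-Hochberg adjustment at 0.05, with no block. A fold change on this scale understates that of low genes. edgeR 4.0.16 (quasi-likelihood) and DESeq2 1.42.0 were run on recovered reads. Shares were compared with exact permutation tests and have Clopper-Pearson 95% intervals from scipy 1.17.1. Other alternatives changed the pseudocount, filter, library totals and libraries used. The members and lists were chosen with earlier results of these data known. Named genes were all members and, from each list, genes called, with an unadjusted p under 0.05 or among the 2 highest in mean; of the mesenchyme, epithelium and macrophage lists mainly the sums are given. The planned share of embryonic among all globins was not run because the adult globins were not analysed here, and the shares of *Hbb-bh1* and *Hba-x* were added after the data had been seen. Coordinates are from GENCODE M21 and promoters from RefSeq.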

Additional observations from a re-analysis of the deposited data

How the results depend on the processing

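No member was called in the 10 alternatives that kept all 4 libraries, and the adjusted p of each stayed above 0.05 there. Leaving out 1 library gave 0 to 1 member called, the 1 being *Hbb-bh1* without control replicate 1. The log2 fold change of *Hbb-bh1* then ran from −0.43 (without control replicate 1) to 0.12 (without control replicate 2), that of *Alas2* from −0.64 to 0.077 (without ca-*Acvr1(A11)* replicates 2 and 1) and that of *Slc4a1* from −0.074 to 0.60 (without ca-*Acvr1(A11)* replicates 2 and 1), so that the sign turned for each of the 3. *Hbb-y* and *Hba-x* stayed negative in all 14 alternatives. The ratio of globin shares (0.897) ran from 0.820 (without control replicate 1) to 0.989 (without control replicate 2), and that of *Hbb-bh1* shares (1.01) from 0.930 to 1.09 without the same libraries. With all 4 libraries the globin ratio was 0.886 to 0.897.

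Over all genes, 112 were called, 33 with DESeq2 and 93 to 465 when 1 library was left out, the 465 without control replicate 1, where the lone library is assumed to vary like the other group. Of the other erythroid genes 1 was called, and 0 with edgeR, DESeq2 (5 and 2 at an unadjusted p under 0.05) or the nearest whole-read values (5). Leaving out a library gave 1 to 3, adding *Gata2* without control replicate 1 and *Ldb1* and *Slc40a1* without control replicate 2. The cause was not tested. Totals without *Rn45s* were an alternative chosen after seeing the data. With the replicate number as a block, 229 genes were called over all genes, 0 members and 2 other erythroid genes (*Slc2a1* and *Slc40a1*). Deviations of same-numbered libraries correlated with r = 0.067 over 12462 genes, and no label ties the numbers to a litter or batch, so they were not treated as pairs; whether they mark one was not tested. Embryonic against adult globin shares were not run, since the adult genes were not analysed here. At 27 to 73 reads a library, *Alas2*, *Slc4a1* and *Klf1* are limited by counting error. So are *Slc40a1* (3 to 20 reads), *Hmox1* (13 to 29) and *Mrc1* (9 to 39).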
